A study of Danio rerio with 14 samples.

Results

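The windows richer in CTCF than Rad21 are 105 stretches of 1 Mb of the zebrafish genome in which the CTCF list of embryos at 10 hours post fertilisation (hpf) placed 15 or more peak centres and the Rad21 list of the same stage placed fewer. They were found by counting peak centres in windows that start at multiples of 1 Mb on chromosomes 1 to 25, and they are 105 of 1369 windows, or 7.67%. Their members are 1876 CTCF peaks and 1267 Rad21 peaks of 10 hpf, 3143 of the 32154 peaks in these lists. The windows were chosen by the counts of both 10 hpf lists, so those counts are given as a description and support nothing. Rad21 at 4.5 hpf, with 534 peaks in the windows, had no part in the choice.

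Pooled whole embryos of the strain AB/PS were examined by ChIP-seq (sequencing of DNA that an antibody pulls down with its bound protein), with custom-made antibodies against Rad21 at 2.5, 4.5 and 10 hpf and against CTCF at 10 hpf. Every combination was done in 2 libraries from independent collections, with 2000 embryos per collection at 2.5 hpf and 1000 later, and an input without antibody was sequenced for each stage. None of the groups carried a mutation or a treatment. Signal from whole embryos is an average over all cells, so a site bound in fewer cells and a site bound more weakly in each cell cannot be told apart. One peak list per stage and antibody was deposited and no value per library, so nothing below has a spread between replicates and no test between groups of windows was made. Exact (Clopper-Pearson) 95% intervals follow shares of peaks and exact Poisson 95% intervals follow mean counts per window. They cover counting error only, and neighbouring peaks are not independent.

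Rad21 is the subunit that closes the ring of cohesin, the complex that holds sister chromatids together and extrudes loops of chromatin. CTCF is a zinc finger protein that binds a long DNA motif, and in vertebrates it halts moving cohesin, so that the ends of many loops and the borders of many domains carry both proteins. Cohesin is also found at active promoters and enhancers without CTCF. A CTCF peak without a Rad21 peak is therefore a bound site at which halted cohesin was not called. A Rad21 peak without CTCF is a cohesin site at which CTCF was not called. The early fish embryo runs on maternal products until its own genome is switched on, between the first and second stages sampled here.

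Depth differed between the lists whose counts are compared. Per the file headers, the CTCF list was called from 28291282 tags and the 10 hpf Rad21 list from 13260105, a ratio of 2.13, while the 4.5 hpf Rad21 list rested on 14255160. A peak needed at least 15 tags in the CTCF list and 11 in either Rad21 list. Over the whole genome the CTCF list was nevertheless the shorter, with 14079 peaks against 18075, or 0.78 CTCF peaks for each Rad21 peak. In the 105 windows the ratio was 1.48, and fewer Rad21 than CTCF peaks were counted in 424 of all 1369 windows (31.0%). Of the tags, 1.03% lay in peaks for CTCF, 3.38% for Rad21 at 10 hpf and 1.03% for Rad21 at 4.5 hpf, per the same headers. The part of depth in the choice of windows was not tested.

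**Figure D1:**
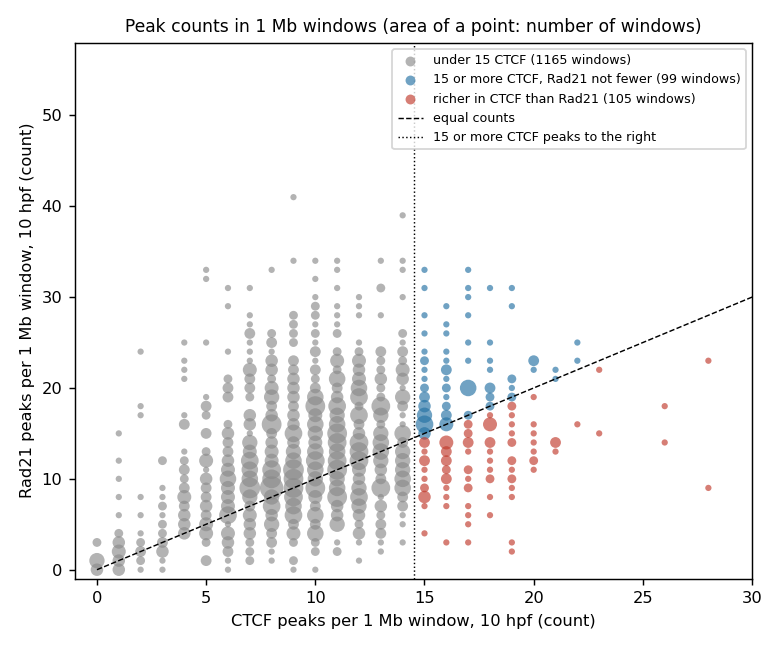
Each point stands for the 1 Mb windows with one pair of counts, the number of CTCF peaks at 10 hpf on the x axis and of Rad21 peaks at 10 hpf on the y axis, with an area that grows with the number of windows. The 105 windows in red lie at 15 or more CTCF peaks and below the line of equal counts. The 99 windows in blue also have 15 or more CTCF peaks but at least as many Rad21 peaks.

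The windows held 17.9 CTCF peaks on average (SD over windows 2.64, range 15 to 28) and 12.1 Rad21 peaks of 10 hpf (SD 3.86, range 2 to 23). Genome-wide means were 10.3 and 13.2. The median difference between the counts was 6 peaks, with quartiles of 3 and 8 and a largest value of 19. In 16 of the windows CTCF peaks were at least 2 times as many as Rad21 peaks. Their high CTCF counts, which the rule demands, were shared with 99 other windows of 15 or more CTCF peaks. The median Rad21 count of the 105 windows, 12, equals the genome-wide median but lies below the 20 of those 99. The rule keeps the Rad21 count below the CTCF count.

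At the edge of the rule, 17 windows held exactly 15 CTCF peaks and 10 had a difference of exactly 1 peak. The windows of chromosome 4 from 1 Mb, chromosome 18 from 46 Mb and chromosome 23 from 13 Mb were at both limits, with 15 CTCF and 14 Rad21 peaks each. Just outside lay 41 windows with 14 CTCF peaks and fewer Rad21 peaks, such as chromosome 9 from 32 Mb with 14 and 13, and 16 windows with equal counts, such as chromosome 3 from 25 Mb with 18 of each. Many windows thus lie within a few peaks of either limit.

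The most CTCF peaks were found in the window of chromosome 2 from 59 Mb, near the chromosome's end, with 28 CTCF and 9 Rad21 peaks, and in the first window of chromosome 11, with 28 and 23. On chromosome 11 the windows from 2 Mb and from 11 Mb followed, with 26 CTCF peaks each and 18 and 14 Rad21 peaks. The first window of chromosome 9 held 23 CTCF and 15 Rad21 peaks, and that of chromosome 21 from 5 Mb held 23 and 22. Chromosome 4 from 2 Mb held 22 and 16. The windows of chromosome 2 from 3 Mb, chromosome 3 from 14 Mb and chromosome 4 from 0 Mb each held 21 CTCF and 14 Rad21 peaks. Among these 10 windows the CTCF count ranged from 21 to 28 and the Rad21 count from 9 to 23.

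The largest differences came mostly from windows with very few Rad21 peaks. After chromosome 2 from 59 Mb, with its difference of 19, came chromosome 11 from 33 Mb, with 19 CTCF peaks and 2 Rad21 peaks. Chromosome 22 from 8 Mb held 19 and 3, chromosome 16 from 50 Mb held 17 and 3, and chromosome 17 from 1 Mb held 16 and 3. Chromosome 1 supplied 3 windows of this kind, from 48 Mb with 17 and 5, from 54 Mb with 19 and 8, and from 56 Mb with 15 and 4. Chromosome 13 from 44 Mb held 18 and 6, and chromosome 11 from 11 Mb, the remaining window of the 10, held 26 and 14. For the 5 windows of largest difference the Rad21 count was at most 9, against a median of 12 over all 105.

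**Figure D2:**
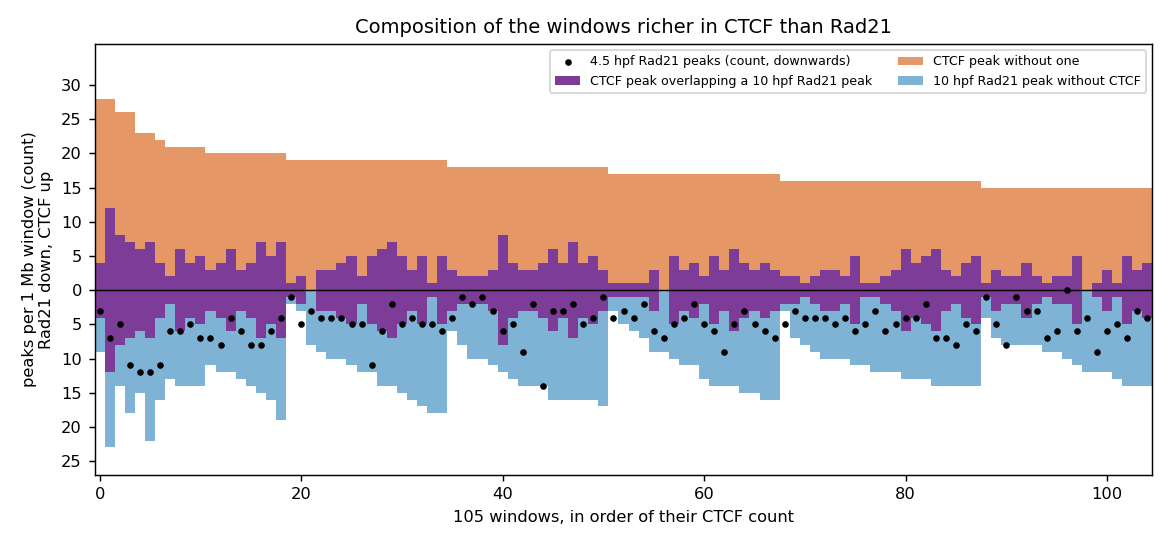
Each column is 1 of the 105 windows, in order of CTCF count. Upwards are the CTCF peaks (count) that overlap a 10 hpf Rad21 peak (purple) and those that do not (orange), downwards the Rad21 peaks with CTCF (purple) and without (blue), and black points mark the number of 4.5 hpf Rad21 peaks. In 64 windows the CTCF peaks without Rad21 alone outnumber all Rad21 peaks.

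An overlap of 1 bp or more made a peak shared. Of the 1876 CTCF peaks in the windows, 376 overlapped a Rad21 peak of 10 hpf, or 20.0% (18.3 to 21.9), where the share over all 14079 CTCF peaks was 24.1%. The other 1500 had none. A lower share in windows chosen for few Rad21 peaks is in part fixed by the choice, so nothing is read from it. In the 99 other windows with 15 or more CTCF peaks, where Rad21 peaks were at least as many, 523 of 1644 CTCF peaks, or 31.8% (29.6 to 34.1), were shared.

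Per window, the 105 windows held a mean of 3.58 shared sites, 14.3 CTCF peaks without Rad21 and 8.49 Rad21 peaks without CTCF. The 99 comparison windows held 5.28, 11.3 and 15.5 in the same order. The comparison windows held more shared sites, fewer unshared CTCF peaks and more unshared Rad21 peaks. Over the whole genome the means were 2.48, 7.81 and 10.7. All of these means depend on counts that the rule used.

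Sharing varied among the windows. The share of a window's CTCF peaks at Rad21 had a median of 18.8%, with quartiles of 12.5% and 26.3%. Medians were 31.6% in the comparison windows and 22.2% over all windows. The counts that the rule used enter these shares, so they are tied to it. It was highest on chromosome 11, in the window from 23 Mb with 8 of 18 CTCF peaks (44.4%) and in the first window with 12 of 28 (42.9%). No CTCF peak was shared in 3 windows, chromosome 1 from 38 Mb, chromosome 1 from 54 Mb and chromosome 11 from 21 Mb. These held 12, 8 and 9 Rad21 peaks. Such windows outside the 105 were not counted, so nothing is read from the 3. In chromosome 15 from 31 Mb, 1 of 19 CTCF peaks was shared beside 18 Rad21 peaks. The Rad21 counts of the 3 windows without a shared site were at or below the median of 12 over the 105.

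Seen from Rad21, 376 of the 1267 peaks of the windows lay at CTCF, or 29.7% (27.2 to 32.3), against 18.8% of all Rad21 peaks of 10 hpf. More CTCF peaks per Rad21 peak leave more chances of overlap, so this share is also tied to the rule. The share in the 99 comparison windows was 25.5% (23.6 to 27.4), and in windows with under 15 CTCF peaks it was 16.9% (16.3 to 17.5). Where both proteins met, the median offset between their peak centres was 27 bp, with quartiles of 11.8 and 47 bp, against 28 bp genome-wide.

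Sharing of Rad21 peaks with CTCF was lower in the last quartile of the Rad21 list than in the first, in the windows and elsewhere. In its first quartile 39.7% (34.0 to 45.5) of the Rad21 peaks of the windows were at CTCF, and in its last quartile 17.1% (13.3 to 21.5). The second quartile, with 39.1% (33.7 to 44.6) in the windows and 33.8% (29.7 to 38.1) in the comparison windows, stood near the first. The comparison windows went from 33.5% (29.6 to 37.5) to 10.4% (7.78 to 13.5). Over all 10 hpf Rad21 peaks the shares of the first and last quartiles were 26.6% (25.4 to 27.96) and 8.52% (7.72 to 9.37). Differences between the sets of windows are tied to the counts that the rule used.

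The first CTCF peaks of the windows show both kinds of site. A peak's place in a list is its row in the deposited order, which stands in for a score because the deposited scores of these lists do not differ. The highest was at chromosome 11, 10725183 to 10725347, at place 13 of the CTCF list, and it lay 16 bp from the centre of a Rad21 peak at place 371. Next came chromosome 6, 109530 to 109694 (place 18), and chromosome 10, 38375575 to 38375739 (place 19), both at Rad21 peaks of 10 hpf (places 6361 and 1548). At chromosome 11, 11963296 to 11963460 (place 20), no Rad21 peak was listed and the nearest centre was 73376 bp away. The site at chromosome 4, 2817114 to 2817278 (place 21), overlapped a Rad21 peak of 4.5 hpf (place 4465) and none of 10 hpf.

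Of the following 5, the peaks at chromosome 17, 16644890 to 16645054 (place 25), and chromosome 4, 467950 to 468114 (place 32), overlapped Rad21 peaks of both 4.5 and 10 hpf. Those at chromosome 25, 6317187 to 6317351 (place 30), and chromosome 21, 26961438 to 26961602 (place 62), overlapped a 10 hpf peak alone. The one at chromosome 18, 44616598 to 44616762 (place 42), had no Rad21 peak of any stage and the nearest of 10 hpf was 45998 bp away. Among the first 10 CTCF peaks of the windows 7 were thus shared with Rad21 at 10 hpf. Over the first quartile of the whole CTCF list the share was 61.2%. Below the first 10, an unshared peak at chromosome 3, 14794090 to 14794254 (place 138), had Rad21 82297 bp away. Another at chromosome 11, 2574787 to 2574951 (place 164), had Rad21 2059 bp away.

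CTCF peaks of the windows tended to stand lower in the list than those of the comparison windows. Among the first 25% of the CTCF list were 406 of the 1876, or 21.6% (19.8 to 23.6), against 565 of 1644, or 34.4% (32.1 to 36.7), in the 99 comparison windows and 24.1% (23.3 to 24.96) in windows with under 15 CTCF peaks. By construction the share over all CTCF peaks was 25%. Median places were 7427 in the windows, 5516 in the comparison windows and 7040 over the list. Within the windows the 376 shared CTCF peaks had a median place of 3060 and the 1500 unshared ones of 8535. Place thus went with sharing. In the comparison windows the medians were 2287 for shared and 7590 for unshared peaks, so the gap in CTCF places was seen in either class. The Rad21 count of the rule parted these sets, and its part in the gap was not tested. The share of the windows in the first 25% depended on the rule. It was 25.1% with the Rad21 list cut to the length of the CTCF list, and 18.6% with a minimum of 12 CTCF peaks. Rad21 peaks of the windows showed a smaller gap, with 22.9% (20.6 to 25.3) in the first 25% of their list against 27.7% (25.7 to 29.7) in the comparison windows and 25% over the list. Rows lie in blocks sorted by chromosome, so places inside a block rank nothing; 445 CTCF peaks share the block at the limit of the first 25%, and giving each block a single place changed the CTCF share to 21.9%.

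Because sharing falls along the CTCF list, the share was also taken in each quartile of that list. In the first quartile 209 of 406 CTCF peaks of the windows were at Rad21, or 51.5% (46.5 to 56.4), against 62.7% (58.5 to 66.7) in the comparison windows and 62.4% (60.5 to 64.3) in windows with under 15 CTCF peaks. In the second quartile the shares were 22.8% (19.1 to 26.8), 26.3% (22.2 to 30.7) and 22.7% (21.1 to 24.4). They were 6.53% (4.54 to 9.05), 9.66% (6.78 to 13.2) and 7.21% (6.26 to 8.26) in the third quartile, and 5.45% (3.62 to 7.84), 7.64% (4.91 to 11.2) and 4.15% (3.43 to 4.97) in the last. Intervals of the windows and of either other set were apart in the first quartile and overlapped in the second, the third and the last. This too is a share that the rule constrains.

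**Figure D3:**
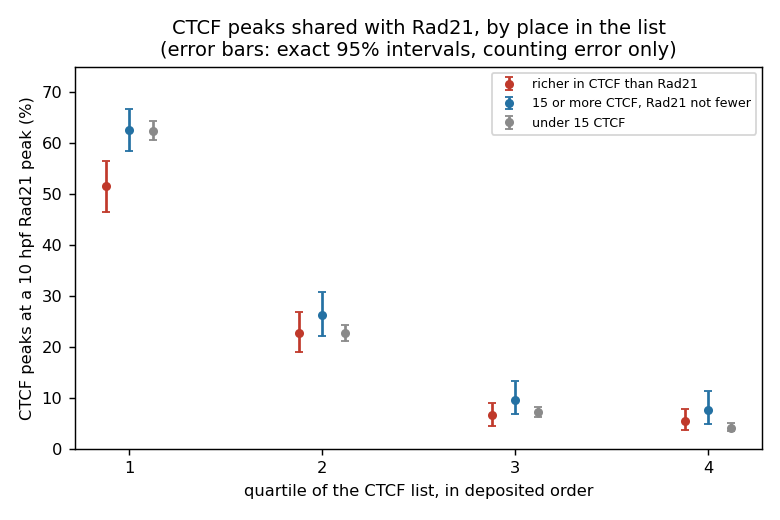
The y axis gives the share (%) of CTCF peaks that overlap a 10 hpf Rad21 peak and the x axis the quartile of the CTCF list in its deposited order, for the 105 windows (red), the 99 comparison windows (blue) and windows with under 15 CTCF peaks (grey), with exact 95% intervals. Red points fall from 51.5% in the first quartile to 5.45% in the last, and red lies below blue in each quartile, with intervals that are apart in the first alone.

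Rad21 at 4.5 hpf was the measurement that the choice of windows did not use. The 105 windows held 534 of the 7144 peaks of that list, or 5.09 per window (4.66 to 5.54). In the 99 comparison windows there were 800, or 8.08 per window (7.53 to 8.66), and over all windows 5.22 (5.10 to 5.34). The windows with 15 or more CTCF peaks and more Rad21 at 10 hpf thus also held more Rad21 at 4.5 hpf, and the intervals were apart. Neighbouring peaks are not independent, so these intervals are too narrow. SDs over windows were 2.56 in the 105 and 3.56 in the comparison windows. The 10 hpf Rad21 count parted these sets and went with the 4.5 hpf count over all windows (Spearman's rho 0.60). The difference is therefore tied to the choice. The interval of the 105 windows overlapped that of the genome, but this depended on the rule: with the 10 hpf Rad21 list cut to the length of the CTCF list the windows that met it held 5.91 (5.54 to 6.30), and with a minimum of 12 CTCF peaks 4.56 (4.29 to 4.85). In the first 25% of the 4.5 hpf list were 24.2% (20.6 to 28.02) of the early peaks of the windows, against 25% over the list and 31.5% (28.3 to 34.8) in the comparison windows.

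Across the 105 windows the 4.5 hpf count ran from 0 to 14, with a median of 5 and quartiles of 4 and 6. The highest counts were 14 in the first window of chromosome 13, 12 in the first window of chromosome 9 and in chromosome 21 from 5 Mb, and 11 in chromosome 4 from 2 Mb and chromosome 11 from 2 Mb. Of these 5 windows, 4 also ranked among the 10 with most CTCF peaks. Only chromosome 9 from 26 Mb held none, with 15 CTCF and 10 Rad21 peaks at 10 hpf. Rank correlation of the 4.5 and 10 hpf Rad21 counts was 0.35 (Spearman's rho over the 105 windows), 0.33 over the 99 comparison windows and 0.61 over all 1264 others. That of 4.5 hpf Rad21 with CTCF was 0.19, 0.29 and 0.36. The points share libraries and the rule narrows their range, so these values are descriptions.

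The 10 hpf list held 2.37 Rad21 peaks for each one of 4.5 hpf in the windows, 2.57 in the comparison windows and 2.53 over the genome. The share of tags in peaks also differed, with 3.38% at 10 hpf and 1.03% at 4.5 hpf, and its part in these counts was not tested. The later count was below the earlier one in 3 windows, all among the 5 with the largest difference between CTCF and Rad21, against 50 of all 1369 windows and 0 of the 99 comparison windows. Chromosome 16 from 50 Mb went from 4 to 3 peaks, chromosome 17 from 1 Mb from 5 to 3 and chromosome 22 from 8 Mb from 5 to 3. All 3 rest on a handful of peaks. A low 10 hpf Rad21 count makes both a large difference from CTCF and a count below that of 4.5 hpf. The comparison windows held at least 15 Rad21 peaks at 10 hpf by the rule, so both contrasts are tied to it.

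**Figure D4:**
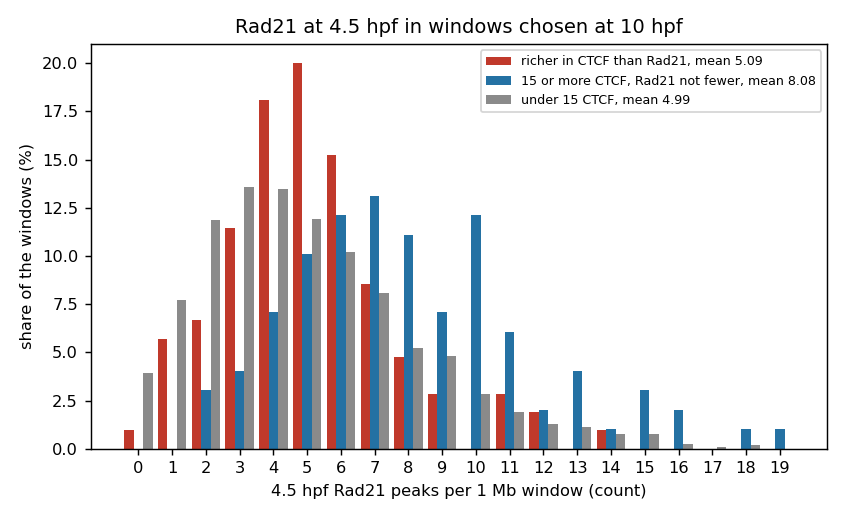
The x axis gives the number of 4.5 hpf Rad21 peaks in a 1 Mb window and the y axis the share (%) of windows with that number, for the 105 windows (red), the 99 comparison windows (blue) and windows with under 15 CTCF peaks (grey). Red and grey have means of 5.09 and 4.99 peaks per window, and blue lies to the right with a mean of 8.08.

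Of the 534 peaks of 4.5 hpf, 207 overlapped a Rad21 peak of 10 hpf, or 38.8% (34.6 to 43.0), against 41.2% of all 4.5 hpf peaks and 51.1% (47.6 to 54.6) in the comparison windows. In the first quartile of the 4.5 hpf list 106 of 129 were found again (82.2%, 74.5 to 88.3), against 84.1% (79.0 to 88.4) in the comparison windows and 79.6% (77.4 to 81.7) in windows with under 15 CTCF peaks. Among early Rad21 peaks high in their list, the intervals of the 3 sets thus overlapped. Being found again needs a 10 hpf Rad21 peak, whose count chose the windows, so these shares are tied to the rule.

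CTCF sites took up 77 of the 534 early Rad21 peaks, or 14.4% (11.6 to 17.7), where the share over the whole 4.5 hpf list was 11.9% and in the comparison windows 19.9% (17.2 to 22.8). Divided by what became of them, 63 early peaks lay at both a 10 hpf Rad21 peak and CTCF, 144 at 10 hpf Rad21 alone, 14 at CTCF alone and 313 at neither. Of the early peaks found again at 10 hpf 30.4% (24.2 to 37.2) were at CTCF, and of those not found again 4.28% (2.36 to 7.08). The same contrast was seen over all 4.5 hpf peaks, with 25.02% and 2.76%, and in the comparison windows, with 34.5% and 4.60%. Seen from CTCF, 77 of 1876 peaks lay at early Rad21, or 4.10% (3.25 to 5.10), against 6.06% of all CTCF peaks and 9.67% (8.29 to 11.2) in the comparison windows. CTCF was measured at 10 hpf alone, so whether it occupied these sites at 4.5 hpf is unknown. The CTCF counts that the rule used enter the shares of 14.4% and 4.10%, so both are tied to the rule.

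Sites of CTCF and of Rad21 at both later stages numbered 62 in the windows, 3.30% (2.54 to 4.22) of their CTCF peaks, against 5.23% of all CTCF peaks and 8.58% (7.27 to 10.04) in the comparison windows. After the peaks of chromosomes 17 and 4 named above, the first in CTCF order lay on chromosome 10 from 6950834 to 6950998 (place 144). Chromosome 15 followed, from 25907959 to 25908123 (place 288), then chromosome 13, from 697698 to 697862 (place 363). Most CTCF peaks of the windows, 1485 or 79.2% (77.2 to 81.0), had no Rad21 peak at either later stage, against 75.1% of all CTCF peaks. Rad21 at 4.5 hpf only was met by 15, or 0.80%, against 0.83% of all. Presence or absence of a 10 hpf Rad21 peak enters each of these shares, and the count of such peaks chose the windows, so they are tied to the rule.

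The first 5 Rad21 peaks of the windows at either later stage were not at CTCF. In the first quartile of the 10 hpf Rad21 list, 39.7% of the peaks of the windows were at CTCF, and 26.6% of all. Over the whole 4.5 hpf list the share was 11.9%. With 5 peaks per list, and sites common to both, nothing is read from this. At 10 hpf the first was on chromosome 4, from 2133826 to 2134014 (place 8 of the Rad21 list). Chromosome 2 held the second, from 55796815 to 55797003 (place 9), and the fourth, from 44632503 to 44632691 (place 15). On chromosome 25 the third ran from 6053411 to 6053599 (place 12), and on chromosome 18 the fifth from 44205977 to 44206165 (place 25). Each of the 5 overlapped a 4.5 hpf peak, in list order at places 3, 11, 84, 113 and 30, and none overlapped CTCF. At 4.5 hpf the first 5 included the same sites on chromosome 4, on chromosome 2 (start 55796809) and on chromosome 18, together with chromosome 10, 6572219 to 6572387 (place 20), and chromosome 13, 43124389 to 43124557 (place 24). Of all 1267 Rad21 peaks of the windows, 207 were present at 4.5 hpf, or 16.3% (14.3 to 18.5), equal to the 16.3% of the whole list. At neither CTCF nor early Rad21 lay 746, or 58.9% (56.1 to 61.6). That share was 69.05% over the list and 61.5% (59.3 to 63.6) in the comparison windows. The CTCF counts that the rule used enter it, so it is tied to the rule.

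Spacing followed the counts. A CTCF peak of the windows had its nearest other CTCF peak at a median of 18.8 kb (quartiles 8.95 and 37.6 kb), against 21.4 kb in the comparison windows and 29.7 kb over the genome. Another CTCF peak lay within 10 kb for 528 of them, or 28.1% (26.1 to 30.2), against 19.4% of all CTCF peaks and 25.6% (23.5 to 27.8) in the comparison windows. The share was 29.8% (25.2 to 34.7) for CTCF peaks at Rad21 and 27.7% (25.5 to 30.1) for those without, and these intervals overlapped. The fullest 100 kb stretch of a window held a median of 4 CTCF peaks and at most 7, on chromosome 11 from 11 Mb and chromosome 17 from 16 Mb. In the median window most CTCF peaks thus lay outside its fullest stretch.

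The closest CTCF pair of the windows, with starts at 130518 and 130855 on chromosome 11, was 337 bp apart, and its second peak was at a Rad21 peak while the first was not. The same held for pairs on chromosome 25 (starts 6355369 and 6355937) and chromosome 10 (starts 38408296 and 38408956). On chromosome 4 (starts 1734159 and 1734699) and chromosome 25 (starts 5312884 and 5313526) neither peak of the pair met Rad21. None of the 5 closest pairs was at Rad21 with both peaks. Per the file headers, the minimum distance between peaks was set to 328 bp for CTCF, so the closest pair lies near that limit. For Rad21 at 10 hpf it was set to 378 bp, wider than the 337 bp of that pair. Only 20.0% of all CTCF peaks of the windows were at Rad21, so nothing is read from this count.

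CTCF peaks without Rad21 were mostly far from it. Their median distance to the nearest Rad21 centre of 10 hpf was 32.4 kb in the windows. It was 18.7 kb in the comparison windows and 28.7 kb over the genome. The Rad21 counts of the rule enter these distances, and their part in this order was not tested. Widening the match from overlap to centres within 1 kb raised the share of CTCF peaks of the windows with a Rad21 partner from 20.0% to 22.2% (20.4 to 24.2), where all CTCF peaks stood at 25.7%. Rad21 peaks without CTCF lay a median of 19.8 kb from the nearest CTCF peak in the windows and 20.7 kb in the comparison windows. Next to each other, Rad21 peaks of the windows were sparser. Another Rad21 peak lay within 10 kb for 24.6% (22.3 to 27.1), against 31.2% of all 10 hpf Rad21 peaks and 39.6% (37.4 to 41.7) in the comparison windows. The Rad21 counts that the rule used enter these shares, so they are tied to it.

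Windows of this kind were found on every chromosome but chromosome 7, which had 78 windows, 6 of them with 15 or more CTCF peaks. Chromosome 11 had the most for its length, with 9 of 47 windows and 181 CTCF against 111 Rad21 peaks, and chromosome 16 had 9 of 59, with 162 against 111. Chromosomes 20, 22 and 23 had 1 each. Of the 105 windows 84 stood alone, 18 formed 9 neighbouring pairs and 3 made up a run over the first 3 Mb of chromosome 4, with 58 CTCF, 44 Rad21 and 25 early Rad21 peaks. Of the pairs, chromosome 11 from 33 Mb held 35 CTCF and 13 Rad21 peaks and chromosome 11 from 10 Mb held 41 and 26. The other 7 pairs lay on chromosomes 6 (from 0 and from 54 Mb), 8 (from 8 Mb), 13 (from 43 Mb), 16 (from 14 Mb), 18 (from 43 Mb) and 25 (from 5 Mb), with 34 to 41 CTCF and 20 to 30 Rad21 peaks each.

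The place of the windows along the chromosomes was not used by the rule. The last peak end of any list stood for the end of a chromosome. Within 5 Mb of an end lay 40 of the 105 windows, or 38.1% (28.8 to 48.1), against 25.3% (17.1 to 35.0) of the comparison windows and 18.03% (15.9 to 20.4) of windows with under 15 CTCF peaks. Over all windows it was 20.1%. Of the 40, 19 were at the first 5 Mb and 21 at the last. The comparison windows had 16 and 9 there, and all windows 125 and 150. At 5 Mb the interval of the 105 windows overlapped that of the comparison windows and lay above that of the remaining windows. Within 10 Mb the shares were 61.0% (50.9 to 70.3), 43.4% (33.5 to 53.8) and 35.9% (33.1 to 38.7). Closer to the ends both sets with many CTCF peaks stood together, with 10.5% and 13.1% within 1 Mb and 22.9% and 22.2% within 3 Mb, against 4.38% and 11.1% of the remaining windows. Neighbouring windows are not independent, so these intervals are too narrow.

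**Figure D5:**
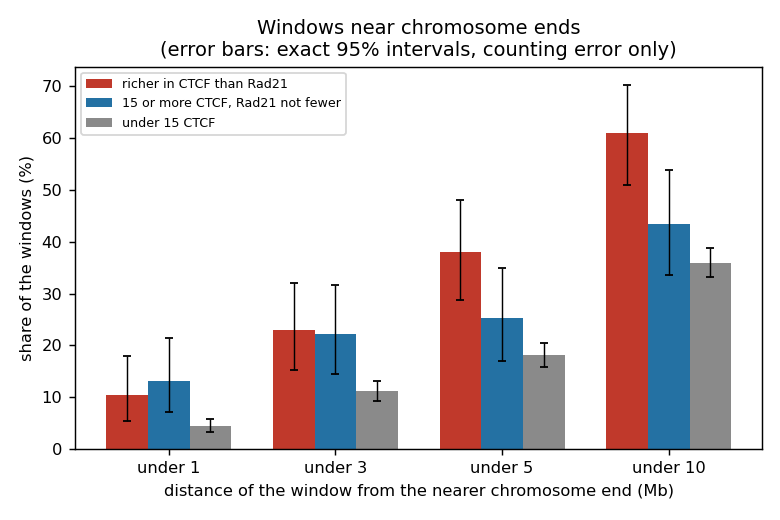
Bars give the share (%) of windows whose edge lies under 1, 3, 5 or 10 Mb from the nearer chromosome end (x axis, Mb), for the 105 windows (red), the 99 comparison windows (blue) and windows with under 15 CTCF peaks (grey), with exact 95% intervals. At 5 Mb the bars stand at 38.1%, 25.3% and 18.03%.

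Rad21 at 2.5 hpf was rare in the windows. They held 44 of the 2011 chromosomal peaks of that list, or 0.42 per window (0.30 to 0.56). The comparison windows held 0.75 (0.59 to 0.94) and all windows 1.47, where crowded windows of up to 83 peaks raise the mean. The median was 0 in each of these sets. Such peaks lay in 32 of the 105 windows, 41 of the 99 comparison windows and 551 of all 1369. None of the 105 windows held more than 4, on chromosome 14 from 53 Mb. The authors' fold enrichment over modelled input had a median of 4.87 and a highest value of 15.5, at chromosome 6, 55109601 to 55109969, followed by 15.2 at chromosome 14, 53029388 to 53029692. Of the 44, 1 overlapped later Rad21, at chromosome 13, 43124076 to 43124484 (fold enrichment 4.21). Both a 4.5 hpf peak (place 24) and a 10 hpf peak (place 343) were listed there. Over all 2011 peaks, 2 overlapped Rad21 of 4.5 hpf and 7 that of 10 hpf. None of the 1876 CTCF peaks lay at a 2.5 hpf peak, which allows a share of up to 0.160% by the limit of 3 counts. Over the whole list, 4 of 14079 CTCF peaks lay at one. The 2.5 hpf list came from another caller, another library kit and paired 125 bp reads in place of single 50 bp reads. Its samples had 6 cycles of sonication in place of 10. Counts of this list are therefore not comparable with the later ones.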

How the data were processed

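ChIP-seq peak lists of pooled zebrafish embryos were used as deposited, 1 for each stage and antibody. The submitters' processing notes name Bowtie2 2.2.1, HOMER and the build Zv9. For the 4.5 and 10 hpf lists HOMER required a false discovery rate of 0.001 and 4-fold enrichment over input and the surrounding 10000 bp, at most 1 tag per position counting for Rad21 and 2 for CTCF, per the file headers. Those of Rad21 were centred on the highest pile-up, which the CTCF header does not state. The sources used here do not say whether both libraries entered each of these lists. The score deposited by the authors in these lists is constant and was replaced by row order. The 2.5 hpf list was called with MACS2 2.1.0.20151222 on pooled libraries, and its fold enrichment is a ratio over modelled input, per the file headers.

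Centres of peaks on chromosomes 1 to 25 were counted in 1 Mb windows, and overlaps, distances and exact intervals were computed with Python 3.11.15, pandas 2.3.3 and scipy 1.17.1 (matplotlib 3.10.9 for figures). The routines were tested on simulated peaks with known overlaps. Coordinates are 1-based on Zv9. Windows and peaks are named by fixed rules (most CTCF, largest difference, most and no early Rad21, first in each list, closest pairs, edges of the rule), with windows of highest and lowest sharing, of the fullest 100 kb and with fewer Rad21 peaks at 10 than at 4.5 hpf, and 2.5 hpf peaks of highest fold or at later peaks, added after their values were seen. Members and comparisons were chosen with earlier results of these data known. Genes, motifs and sequences were not analysed here, since no Zv9 genome or annotation was used.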

Additional observations from a re-analysis of the deposited data

How the results depend on the processing

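Of 81 alternative values, 57 stayed within the interval of the value as reported (for the number of windows, within 1.5 times). The other 24 follow. A minimum of 12 CTCF peaks gave 224 windows, 17.5% of CTCF peaks at Rad21, 26.2% of Rad21 peaks at CTCF, 4.56 early Rad21 peaks per window, 18.6% of CTCF peaks in the first 25% of the list and 24.2% with a CTCF neighbour within 10 kb. A minimum of 18 gave 51 windows, 22.1%, 32.8%, 24.1% in the first 25% and 31.8% with a neighbour. With the Rad21 list cut to the length of the CTCF list, 162 windows met the rule, 32.6% of Rad21 peaks were at CTCF, early Rad21 stood at 5.91 per window and 25.1% of CTCF peaks were in the first 25%. Centres within 1 kb gave 22.2% and 32.4% for sharing at 10 hpf. The first 50% of each list gave 25.3%, 36.1% and, for early Rad21 found again, 54.2%. Neighbours within 5 and 20 kb gave 13.1% and 52.6%, and the first 10% of the lists held 7.46% of CTCF and 8.52% of Rad21 peaks. These last settings change the measure itself. Leaving an interval made for 10 kb or for the first 25% was thus largely fixed, and nothing is read from it. The number of windows thus depends on the minimum and on list length. Values stayed within the interval for windows shifted by 0.5 Mb (132 windows), a difference of 3 or more (81) and overlap of at least 50% of the narrower peak, and, chosen after seeing the data, without the first and last window of each chromosome (98), without the 3 windows of largest difference (102) and with 1 place per sorted block. The causes of these changes were not tested. No paired analysis was possible because the lists carry no value per replicate, and for the same reason no library could be left out. With 534 early peaks the interval of the share found again is 34.6 to 43.0%. Gene annotation and sequence alternatives were not run.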
